A study of Mus musculus with 19 samples.

Results

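The genes described here are 10 genes of the unfolded protein response and the integrated stress response in oral tumours of mice: Atf4, Ddit3, Xbp1, Hspa5, Herpud1, Trib3, Chac1, Asns, Phgdh and Psat1. They were chosen by symbol, as the entries of the count table whose Ensembl ID, without its version, carries the symbol in GENCODE, and they are 10 of the 55487 genes in the table. The symbols matched 11 entries, because Ddit3 has a second, 105-base gene model that was at 0 counts in all 19 libraries and was not used. All 10 genes passed the filter on low counts.

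Tumours were induced in C57BL/6J mice with 4NQO (4-nitroquinoline 1-oxide), a carcinogen that damages DNA, given at 100 µg/ml for 10 weeks from 6 weeks of age, and every group carries this exposure. The 19 libraries came from 4 vehicle samples, 4 with regorafenib (5 mg/kg/day), 3 with anti-PD1, 5 with both (the combination) and 3 with an anti-CD40 agonist. Regorafenib is an inhibitor of several kinases, anti-PD1 blocks an inhibitory receptor of T cells, and the CD40 agonist activates antigen-presenting cells. The labels' treatment text names no dose for either antibody, no dose for the drug within the combination and no anti-CD40 arm, and no label ties each sample to its own animal. P-values therefore refer to the scatter among these libraries, part of which may be technical.

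Cells answer misfolded protein in the endoplasmic reticulum (ER) through sensors in its membrane. These raise the chaperone BiP (Hspa5), splice the mRNA of the transcription factor XBP1 and activate ATF6. One of the sensors, PERK, is also among the kinases that phosphorylate the initiation factor eIF2 when amino acids, haem or ER folding capacity run short. That step lowers protein synthesis in general and favours translation of ATF4, which then raises genes for amino acid synthesis, for feedback on the response and, when stress lasts, for cell death. Much of this control acts on translation, splicing and protein, which gene counts do not show.

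The promoters of 4 of these genes are printed to show the DNA elements through which the pathway is known to act. They were read from RefSeq windows on build GRCm38.p6 (250 bases before to 50 after the annotated start), given 5′ to 3′ on the gene's strand and ending at the last base before the start, with matches in capitals. All 10 genes have such a window. Hspa5 (chr2:34771940-34772089, plus strand) and Herpud1 (chr8:94386279-94386428, plus) are shown for the elements bound by ATF6 and XBP1, and Herpud1, Asns (chr6:7693210-7693359, minus) and Chac1 (chr2:119350992-119351241, plus) for the element bound by ATF4.
Hspa5: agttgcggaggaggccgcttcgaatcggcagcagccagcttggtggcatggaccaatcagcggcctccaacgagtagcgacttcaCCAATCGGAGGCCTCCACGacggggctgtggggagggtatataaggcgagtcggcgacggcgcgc
Herpud1: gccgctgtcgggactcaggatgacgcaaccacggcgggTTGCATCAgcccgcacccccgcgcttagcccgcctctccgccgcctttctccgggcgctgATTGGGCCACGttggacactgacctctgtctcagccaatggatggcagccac
Asns: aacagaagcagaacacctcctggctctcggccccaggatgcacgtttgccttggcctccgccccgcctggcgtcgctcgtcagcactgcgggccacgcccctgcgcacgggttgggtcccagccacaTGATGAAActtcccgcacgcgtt
Chac1: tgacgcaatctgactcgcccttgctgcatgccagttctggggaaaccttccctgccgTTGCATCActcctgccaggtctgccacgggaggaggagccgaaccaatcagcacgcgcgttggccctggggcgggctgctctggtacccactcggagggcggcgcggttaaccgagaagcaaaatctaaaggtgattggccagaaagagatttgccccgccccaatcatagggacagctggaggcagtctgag

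The capitals in Hspa5 mark the ER stress response element (CCAAT, 9 bases, CCACG), from 65 to 47 bases before the start. In Herpud1 the second capital run is element II of that kind (ATTGG, 1 base, CCACG), 52 to 42 bases before the start. The other runs are the core of the C/EBP-ATF response element (TGATGNAA, read on the other strand in Herpud1 and Chac1), at 112 to 105 bases before the start in Herpud1, 23 to 16 in Asns and 193 to 186 in Chac1. Trib3 has this core just after its start, at 15 to 22 bases. Both strands of 32851 windows were searched, and the shares holding a match were 3.97% for the C/EBP-ATF core, 0.119% for the ER stress response element and 0.0365% for element II. The cyclic AMP response element TGACGTCA (1.79% of windows) and the unfolded protein response core TGACGTGG (0.676%) had no match in the windows of these genes. A match is a description of letters and not a measured binding site. Distances are from the RefSeq start. The GENCODE models begin inside the printed stretch for Hspa5 (34771970), Asns (7693254, minus strand) and Chac1 (119351229). The marked elements of Hspa5 and Asns lie within those models.

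All 10 transcripts were present in every library. Per unit of exon length, in TPM (counts divided by exon length, scaled to 1000000 per library), Hspa5 had the highest median level over the 19 libraries (305), followed by Atf4 (212), Xbp1 (121) and Herpud1 (115). The enzymes of amino acid synthesis came next, with Phgdh at 89.7 TPM, Psat1 at 55.6 and Asns at 49.7. Chac1 (17.8), Ddit3 (15.0) and Trib3 (8.26), the transcripts of late or severe stress, were lowest. The order of the levels and their spread are different things. Between the lowest and the highest library Hspa5 differed 3.02-fold, Chac1 2.41-fold, Herpud1 2.13-fold and Asns 2.02-fold. Atf4 differed only 1.26-fold and Psat1 1.48-fold. Levels from here on are CPM (counts scaled to 1000000 per library), which compare libraries and not genes.

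Libraries held 16776177 to 24969492 counts. The labelled carcinoma was checked with 10 keratinocyte and squamous carcinoma markers, all detected, whose summed level was 12071 to 17729 CPM with vehicle and 21578 to 27205 CPM with regorafenib. The mean log2 level of this list was 9.04 to 9.55 with vehicle, 9.90 to 10.08 with regorafenib, 9.48 to 9.60 with anti-PD1, 9.38 to 9.82 with the combination and 9.20 to 9.75 with anti-CD40. The regorafenib difference from vehicle was 0.61 (two-sided exact permutation p = 0.0286, the smallest possible, and adjusted p = 0.114 over the 4 treatments). The 15 skeletal muscle markers, also all detected, summed to 43792 to 51996 CPM with vehicle and 31449 to 38504 CPM with regorafenib (difference of mean log2 levels -0.45, exact permutation p = 0.0571, adjusted p = 0.229). The salivary gland list (12 of 14 tested) summed to 38.7 to 18734 CPM over all libraries, with no treatment past the test against vehicle (smallest exact permutation p = 0.317, adjusted p = 0.914), and its member Prol1 was at 0 in every vehicle and anti-PD1 library. The stomach list (10 of 12 tested) had a mean log2 level of 0.49 to 2.47 with regorafenib against -3.00 to -1.33 with vehicle, where Atp4b and Gif were at 0 (exact permutation p = 0.0286, adjusted p = 0.114). The 7 T cell markers were low, with sums of 3.92 to 12.5 CPM over all libraries. Their mean log2 level was above vehicle by 0.85 with regorafenib, 0.84 with anti-PD1 (exact permutation adjusted p = 0.0381 for both) and 0.87 with the combination (0.0317). These passed over the 4 treatments, without adjustment over the marker lists, and each unadjusted p was the smallest possible. With regorafenib the 5 tested adipocyte markers differed from vehicle by -0.70 (exact permutation adjusted p = 0.114) and the 5 erythrocyte markers by 0.68 (0.0571). In bulk tissue, fewer cells of a type and less RNA per cell cannot be told apart.

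**Figure D1:**
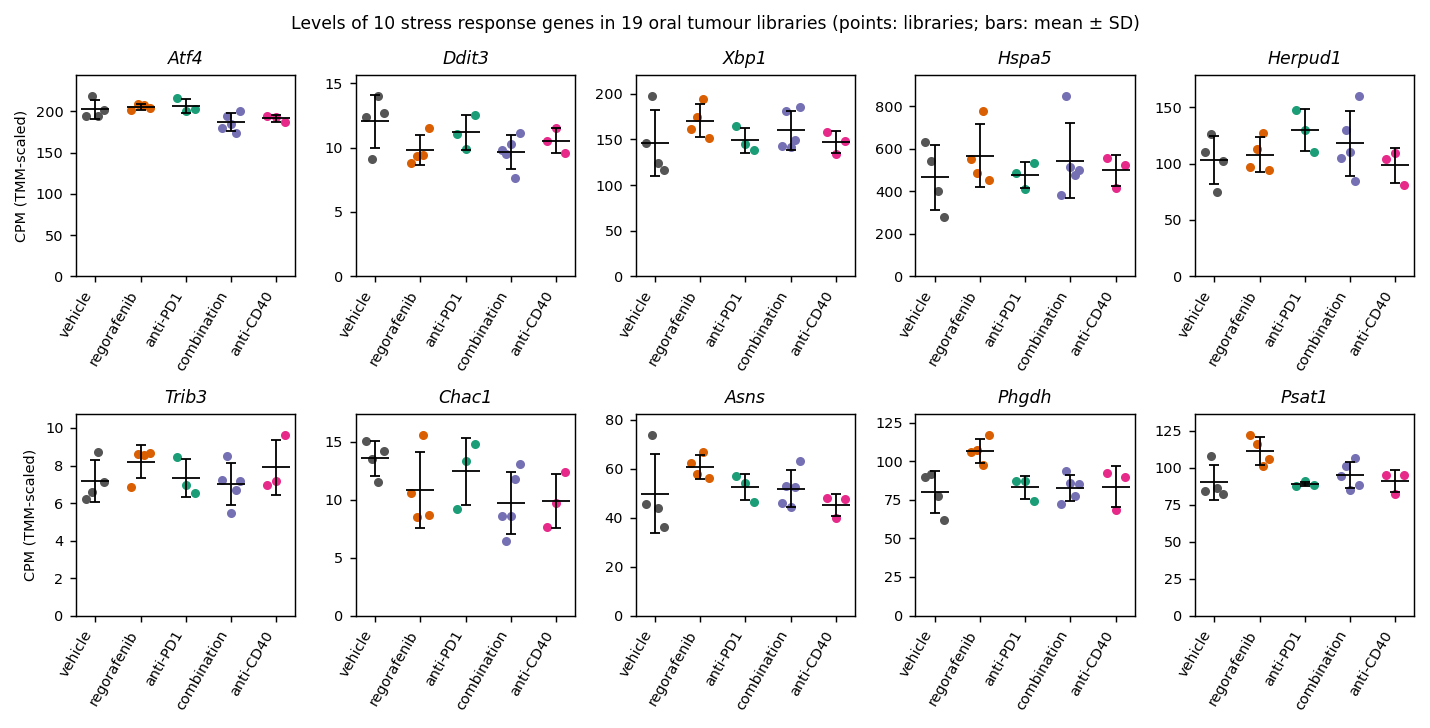
Level of each gene in CPM (vertical axes, from 0) in the 5 treatment groups, with 1 point per library and bars for the group mean ± SD. Phgdh is the gene whose 4 regorafenib libraries (97.8 to 117 CPM) all lie above every other library, while Hspa5 spreads widely within vehicle and within the combination.

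Regorafenib was compared with vehicle to ask what the kinase inhibitor changed. Phgdh and Psat1, the first enzymes of serine synthesis, rose, and none of the 10 genes fell. The stress transcription factors, the ER genes Hspa5 and Herpud1, the feedback and death genes Trib3 and Chac1, and Asns did not pass the test. With 2 of 10 called by edgeR's quasi-likelihood test, the background was 6.32% of the 16909 genes tested (3.32% higher, 3.00% lower). Of the 10 genes, 8 had a positive and 2 a negative log2 difference, and their median was 0.21 against 0.00 over all tested genes.

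Phgdh (ENSMUSG00000053398.11, chromosome 3 from 98313170 to 98339990, GRCm38) encodes phosphoglycerate dehydrogenase, which diverts a glycolytic intermediate into serine. In regorafenib 1 to 4 it stood at 106, 107, 97.8 and 117 CPM, and in vehicle 1 to 4 at 89.6, 91.7, 77.7 and 62.1 CPM. The groups did not overlap, which was true of 16.5% of all tested genes. The means were 107 ± 7.75 (SD, n = 4) and 80.3 ± 13.6 CPM (n = 4), and the log2 change was 0.41 with an SE of 0.12 (adjusted p = 0.0442 by edgeR); log2 changes below are also given ± SE. Psat1 (ENSMUSG00000024640.9, chromosome 19 from 15904678 to 15947337) encodes phosphoserine aminotransferase, the next enzyme of the route. It stood at 122, 116, 101 and 106 CPM in regorafenib 1 to 4 and at 84.5, 108, 86.1 and 82.4 CPM in vehicle 1 to 4. Vehicle 2 reached into the regorafenib range, and the other vehicle libraries lay below it. The means were 111 ± 9.32 and 90.2 ± 11.8 CPM (n = 4 each), and the log2 change was 0.30 ± 0.09 (adjusted p = 0.0473 by edgeR). Psat1 overlaps the pseudogene Gm3329 in GENCODE, so its count is uncertain to that extent.

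Both calls stood close to the threshold. Leaving out any 1 of vehicle 3, vehicle 4, regorafenib 1, regorafenib 2 or regorafenib 4 ended both, without vehicle 1 Psat1 was lost (adjusted p = 0.103) and without regorafenib 3 Phgdh (0.0554). Over the 8 leave-outs, of which that of vehicle 2 kept both calls, the log2 change lay between 0.31 and 0.48 for Phgdh (edgeR adjusted p up to 0.14) and between 0.26 and 0.40 for Psat1 (up to 0.155). The keratinocyte list was higher in the same 4 libraries than in any vehicle library. The summed muscle level was lower in all 4, but the muscle score of regorafenib 2 (10.58) lay above that of vehicle 1 (10.55). With the muscle score as a covariate the log2 change was 0.31 for Phgdh (edgeR adjusted p = 0.297) and 0.25 for Psat1 (0.268). That fit called 0.319% of all tested genes. With the keratinocyte score as a covariate, added after the data were seen, the log2 change was -0.08 for Phgdh (0.914) and 0.16 for Psat1 (0.852), and that fit called 0 of all genes tested. The scores of the regorafenib libraries (9.90 to 10.08) lay above those of all other libraries (up to 9.82). The fit therefore cannot tell the drug from keratinocyte content.

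Asns (ENSMUSG00000029752.12, chromosome 6 from 7675169 to 7693254), asparagine synthetase and a long-known target of ATF4, stood at 62.2, 57.9, 67.1 and 56.2 CPM in regorafenib 1 to 4. In vehicle 1 to 4 it was at 45.6, 73.7, 43.9 and 36.4 CPM. Vehicle 2 was the highest of all 19 libraries and the other vehicle libraries lay below every regorafenib library. The log2 difference was 0.29 ± 0.17 (edgeR adjusted p = 0.301). Without vehicle 2 it was 0.53 and passed (edgeR adjusted p = 0.016). Xbp1 (ENSMUSG00000020484.19, chromosome 11 from 5520659 to 5525893), the factor whose mRNA is spliced under ER stress, had the same pattern. It was at 161, 174, 194 and 152 CPM with regorafenib and 146, 197, 124 and 117 CPM with vehicle (log2 difference 0.22 ± 0.14, edgeR adjusted p = 0.336). Without vehicle 2, whose salivary gland score was the highest of the 19 libraries, the difference in Xbp1 was 0.40 and passed (edgeR adjusted p = 0.0434). With the gland score as a covariate and all 19 libraries, neither Xbp1 nor Asns was called. Xbp1 had r = 0.566 with that score (permutation adjusted p = 0.0486) and rho = 0.526 (0.0802). Asns had r = 0.537 (permutation adjusted p = 0.0532) and rho = 0.565 (0.0568). The part of gland tissue in the effect of leaving out vehicle 2 was not tested. Counts per gene do not separate spliced from unspliced Xbp1.

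Hspa5 (ENSMUSG00000026864.13, chromosome 2 from 34771970 to 34777547), the chaperone BiP whose promoter is printed above, was at 554, 483, 779 and 452 CPM in regorafenib 1 to 4. In vehicle 1 to 4 it was at 633, 541, 403 and 280.3 CPM. The groups overlapped widely, and the log2 difference of 0.29 ± 0.26 was about the size of its error (edgeR adjusted p = 0.523). Herpud1 (ENSMUSG00000031770.16, chromosome 8 from 94386438 to 94395377), a membrane protein of ER-associated degradation, ran from 94.1 to 128 CPM with regorafenib and from 75.3 to 126 CPM with vehicle (0.06 ± 0.18, edgeR adjusted p = 0.871). It overlaps an antisense gene, and the strand setting of the counting is not given in the sources used here.

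Atf4 (ENSMUSG00000042406.8, chromosome 15 from 80255184 to 80257541), the central factor of the integrated stress response, was at 201, 208, 208 and 204 CPM with regorafenib and 194, 218, 194 and 202 CPM with vehicle. The 4 regorafenib libraries lay inside the vehicle range (log2 difference 0.02 ± 0.06, edgeR adjusted p = 0.84). Ddit3 (ENSMUSG00000025408.15, chromosome 10 from 127290774 to 127296288) encodes CHOP, the factor linked to death under lasting stress. It stood at 8.83, 9.39, 9.46 and 11.5 CPM with regorafenib and 12.3, 9.12, 14.0 and 12.7 CPM with vehicle. Vehicle 2 lay within the regorafenib range and the rest of the vehicle libraries above it. The log2 difference of -0.30 ± 0.13 had an unadjusted p of 0.0394 and did not pass (edgeR adjusted p = 0.179). GENCODE places Ddit3 over the opposite-strand genes Mars and Gm4189, so reads of these genes may be mixed.

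Trib3 (ENSMUSG00000032715.9, chromosome 2 from 152337422 to 152344032), a pseudokinase that restrains ATF4 signalling, was at 6.88, 8.64, 8.56 and 8.69 CPM with regorafenib and 6.19, 6.60, 8.73 and 7.11 CPM with vehicle. Vehicle 3 was the highest of these 8 libraries, and the difference did not pass (0.20 ± 0.15, edgeR adjusted p = 0.424). Chac1 (ENSMUSG00000027313.3, chromosome 2 from 119351229 to 119354381), which breaks down glutathione, was at 10.5, 8.50, 15.5 and 8.64 CPM with regorafenib and 15.1, 13.6, 11.5 and 14.2 CPM with vehicle. Regorafenib 3 was the highest of all 19 libraries and the other regorafenib libraries were below the vehicle range (-0.33 ± 0.23, edgeR adjusted p = 0.38).

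**Figure D2:**
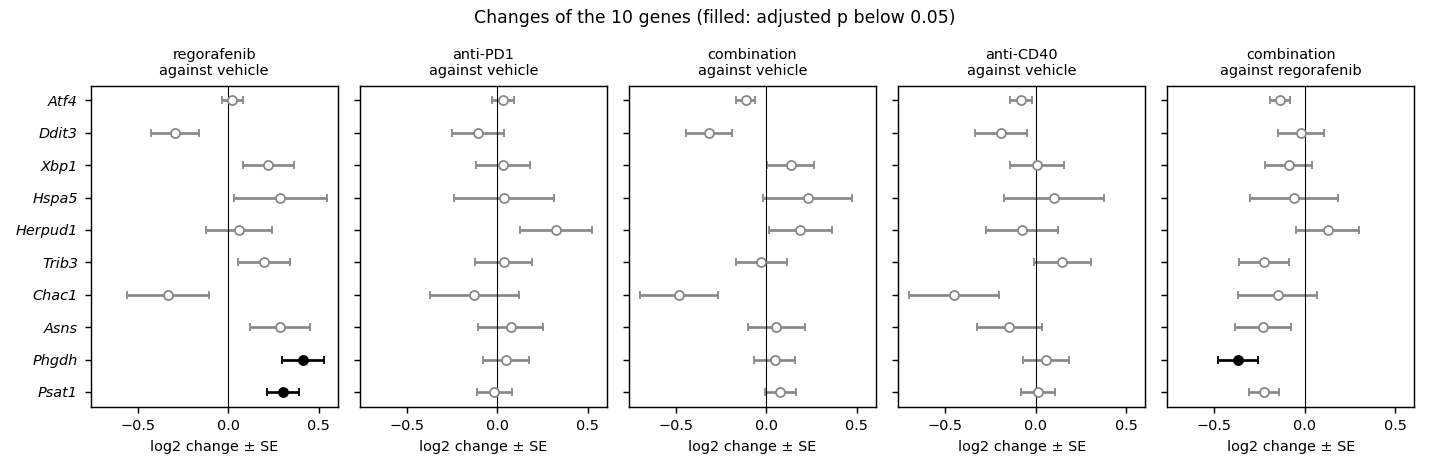
Log2 change ± SE of each gene (horizontal axis) in 5 comparisons, with filled black points where the edgeR adjusted p was below 0.05. Filled points appear for Phgdh (0.41) and Psat1 (0.30) with regorafenib and for Phgdh (-0.37) in the combination against regorafenib.

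The combination was compared with regorafenib alone to ask what adding anti-PD1 changed. Phgdh fell and none of the 10 genes rose, where 10.5% of all tested genes were called by edgeR (5.67% higher, 4.79% lower). In this comparison 9 of 10 genes had a negative log2 difference, with a median of -0.14 against -0.01 over all tested genes, and 3 of 10 (Phgdh, Psat1 and Atf4) had an unadjusted p under 0.05, against 28.1% of all. The comparison shares its regorafenib libraries with the one above, so a library that is high in one moves the other.

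Phgdh was at 72.4, 93.9, 85.6, 77.2 and 85.2 CPM in combination 1 to 5. All of these lie below the lowest regorafenib library (97.8 CPM), and 14.0% of tested genes likewise did not overlap between these groups. The mean was 82.9 ± 8.33 CPM (n = 5), and the log2 change from regorafenib was -0.37 ± 0.11 (edgeR adjusted p = 0.0418). Psat1 was at 94.3, 101, 85.1, 107 and 88.3 CPM, with combination 4 inside the regorafenib range (-0.23 ± 0.08, edgeR adjusted p = 0.0855). The call of Phgdh held without combination 2 (adjusted p = 0.0305) and was lost when any other library of the 2 groups was left out, with log2 changes from -0.41 to -0.32 and adjusted p up to 0.126. Psat1 passed without combination 4 (log2 change -0.27, adjusted p = 0.0496). The muscle score as a covariate gave -0.24 for Phgdh (edgeR adjusted p = 0.537) and the keratinocyte score -0.04 (0.878). Those fits called 0.0237% and 0% of all tested genes, and the latter cannot tell the treatments from keratinocyte content.

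Atf4 in the combination lay below the regorafenib and anti-PD1 libraries and overlapped vehicle. Its 5 values of 180.3, 195, 185, 174 and 199.9 CPM were all below the lowest regorafenib library (201 CPM) and the lowest anti-PD1 library (200.2 CPM). The differences were small. They were -0.14 ± 0.05 from regorafenib (unadjusted p = 0.0198, edgeR adjusted p = 0.103) and -0.15 ± 0.06 from anti-PD1 (unadjusted p = 0.023, adjusted p = 0.391), and neither passed. Between the combination and anti-PD1, 7.36% of tested genes did not overlap.

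In the combination against vehicle edgeR called 0 of the 10 genes, and 0.0237% of all tested genes. An unadjusted p under 0.05 was reached by 3 of the 10, against 10.8% of all tested genes. DESeq2 and limma called 0 (0.623% and 0.0296% of all). For 0 of the 10 genes were the groups free of overlap (3.64% of all). These 3 were Ddit3 (-0.32 ± 0.13, adjusted p = 0.374), Chac1 (-0.48 ± 0.21, adjusted p = 0.425) and Atf4 (-0.12 ± 0.05, adjusted p = 0.453), all with lower means in the combination. Chac1 was at 8.57, 6.45, 8.63, 11.7 and 13.1 CPM in combination 1 to 5. Its 3 lowest libraries of the combination lay below every vehicle library, and the other libraries of the combination lay inside the vehicle range. Ddit3 was at 9.83, 9.52, 10.3, 7.60 and 11.1 CPM, and vehicle 2 was again the lowest vehicle library.

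All treatments were compared with the same 4 vehicle libraries. With anti-PD1 against vehicle edgeR called 0 of the 10 genes and 0% of all tested genes, with 0 of the 10 at an unadjusted p under 0.05 (9.32% of all). DESeq2 and limma called 0 (0.405% and 0.0177% of all), and 0 had groups that did not overlap (9.23% of all). The largest difference was that of Herpud1, with 148, 130.3 and 111 CPM in anti-PD1 1 to 3 (0.32 ± 0.20, edgeR adjusted p = 0.642). Anti-PD1 3 lay inside the vehicle range of 75.3 to 126 CPM and the other libraries above it. With anti-CD40 the counts were the same: 0 of 10 called against 0% of all genes, and 0 of 10 at an unadjusted p under 0.05 (6.06% of all). DESeq2 and limma called 0 there too (0.0122% and 0.0118% of all). The groups did not overlap for 1 of 10 genes (5.87% of all), Atf4, whose highest anti-CD40 library (193.8 CPM) lay just under its lowest vehicle library (194.1 CPM). Chac1 stood at 7.68, 9.72 and 12.3 CPM with anti-CD40 (-0.45 ± 0.25, edgeR adjusted p = 0.845). Phgdh was at 92.5, 68.4 and 89.9 CPM and Psat1 at 95.1, 82.2 and 95.4 CPM there, inside or close to the vehicle range for both.

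The combination against anti-PD1 gave 0 of 10 calls by edgeR, where 0.00591% of all genes passed, with Atf4 alone at an unadjusted p under 0.05 (9.94% of all). DESeq2 and limma made 0 calls (0.748% and 0.0591% of all). The interaction asks whether regorafenib acted differently with anti-PD1 than without it. It was called for 0 of 10 genes by edgeR (0.627% of all, 0.449% positive and 0.177% negative), by DESeq2 (3.92% of all) and by limma (1.18%). Phgdh alone had an unadjusted p under 0.05 (15.8% of all). Its interaction was -0.42 ± 0.17 on the log2 scale (unadjusted p = 0.0233, edgeR adjusted p = 0.236). The rise of Phgdh with regorafenib is therefore not shown to differ between the presence and absence of anti-PD1. Across all 5 groups together edgeR called 0 of 10 genes (4.49% of all), with an unadjusted p under 0.05 for Phgdh and Psat1 (25.9% of all). Their adjusted p-values were 0.0969 and 0.0939, DESeq2 called both, as it did 17.2% of all genes, and limma called Psat1, as it did 17.1%.

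Around these 10 genes stand 92 further genes of the same pathways, of which 91 were tested and Fgf21 was too low to test. With regorafenib 4 of the 91 rose and 1 fell by edgeR, against the background of 6.32% given above, and their median log2 difference was 0.11 against 0.00 for all tested genes. Positive differences from the same vehicle libraries numbered 66 of the 91 with regorafenib, 66 with the combination, 58 with anti-PD1 and 40 with anti-CD40. Psph (ENSMUSG00000029446.14, chromosome 5 from 129765558 to 129787449), phosphoserine phosphatase, is the last enzyme of serine synthesis. It went from 12.3 ± 1.74 CPM with vehicle to 16.2 ± 0.699 CPM with regorafenib (n = 4 each; log2 change 0.40 ± 0.09, edgeR adjusted p = 0.0186). With Phgdh and Psat1 it completes the route to serine, so all 3 enzymes of that route were called, and they were the 3 called of the 13 genes of amino acid synthesis and one-carbon metabolism (10 higher, 3 lower, median 0.24).

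Of 18 ER chaperones and folding enzymes, 2 rose with regorafenib, where 3.32% of all tested genes rose and 3.00% fell. A positive difference was found for 17 of the 18 (median 0.28, against 0.00 for all tested genes). The share of all tested genes with a positive difference was not computed for this or the other comparisons. Against the same vehicle libraries, 15 of the 18 were positive with anti-PD1 (median 0.07), 15 with the combination (0.18) and 10 with anti-CD40 (0.03). Ero1l, which supplies oxidising power for disulfide bonds, went from 35.2 ± 4.00 to 47.6 ± 5.23 CPM (log2 change 0.43 ± 0.10, edgeR adjusted p = 0.0186). Canx, the lectin chaperone calnexin, went from 220.5 ± 19.8 to 273 ± 13.0 CPM (0.31 ± 0.08, adjusted p = 0.0351). Among 11 genes of ER stress sensors and the XBP1 branch, Atf6, the sensor that is cut to release a transcription factor, fell from 70.6 ± 3.07 to 59.1 ± 5.14 CPM (-0.26 ± 0.07, adjusted p = 0.036). Its relative Atf6b rose, from a mean of 40.5 to 48.7 CPM (0.26 ± 0.08, adjusted p = 0.0445). No gene was called among 7 eIF2 kinase and phosphatase genes, 10 transcription factors and regulators of the integrated stress response, 15 genes of ER-associated degradation, 9 amino acid transporters, 12 tRNA synthetases or 7 tested secreted and death-related targets, where 6.32% of all tested genes were. In these lists 2, 2, 1, 2, 3 and 1 genes, in that order, had an unadjusted p under 0.05, where 24.5% of all tested genes did. When each of the 8 libraries was left out in turn, Ero1l passed in 6 of 8 runs (lost without vehicle 4 or regorafenib 3), Psph in 4 (lost without vehicle 3, vehicle 4, regorafenib 1 or regorafenib 4), Canx in 3 (without vehicle 1, vehicle 2 or regorafenib 2), Atf6 in 2 (without vehicle 1 or regorafenib 3) and Atf6b in 1 (without vehicle 1), with adjusted p up to 0.144. The keratinocyte and muscle values given above apply here too: with either score as a covariate edgeR called 0 of the 91 genes. Those fits called 0% and 0.319% of all tested genes.

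In the combination against regorafenib 2 of the 91 genes rose and 3 fell by edgeR, where 10.5% of all tested genes were called, with a median of -0.06 against -0.01 for all tested genes. Higher were Vldlr, a lipoprotein receptor raised by ATF4 (0.55 ± 0.16, adjusted p = 0.0402), and Creb3l2, a membrane-bound transcription factor (0.41 ± 0.09, adjusted p = 0.014). Lower were Cebpb, a partner of ATF4 (-0.30 ± 0.09, adjusted p = 0.0465), Atf6b (-0.24 ± 0.07, adjusted p = 0.0411) and Sars, the seryl-tRNA synthetase (-0.19 ± 0.05, adjusted p = 0.0344). Creb3l2 passed in 8 of 9 runs that each left out 1 library (adjusted p = 0.0574 without regorafenib 4), Sars in 3 (without regorafenib 3, combination 2 or combination 5) and Atf6b in 2 (without combination 2 or 4). Cebpb passed only without combination 5 and Vldlr only without combination 4. With the muscle or the keratinocyte score as a covariate 0 of the 91 were called, where those fits called 0.0237% and 0% of all tested genes. By edgeR 0 of the 91 genes passed with anti-PD1, the combination or anti-CD40 against vehicle, in the combination against anti-PD1 and in the interaction. An unadjusted p under 0.05 was reached there by 4, 8, 2, 7 and 13 of them, in that order, against 9.32%, 10.8%, 6.06%, 9.94% and 15.8% of all tested genes. DESeq2 called 2 of the 91 in the combination against anti-PD1 (0.748% of all genes) and 2 in the interaction (3.92% of all), and 0 in the other 3 comparisons, while limma called 0 in each.

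Across the 5 groups together, 3 of the 91 genes passed by edgeR, where 4.49% of all tested genes did. Ddit4, a stress-induced brake on mTOR signalling, had means of 54.1 ± 7.37 CPM in the combination (n = 5) and 53.6 ± 10.3 with anti-CD40 (n = 3), against 42.0 ± 1.67 with vehicle (n = 4) and 34.1 ± 5.95 with anti-PD1 (n = 3; edgeR adjusted p = 0.0481). Slc1a4, a neutral amino acid transporter, was lowest with anti-PD1 (56.7 ± 4.15 CPM) and highest with anti-CD40 (83.0 ± 12.9 CPM; adjusted p = 0.0455). Ero1l was highest with regorafenib (adjusted p = 0.0467). Each of these calls was lost in most of the 19 runs that left out 1 library, with Ddit4 passing in 2 and Ero1l and Slc1a4 in 4 (adjusted p up to 0.137).

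**Figure D3:**
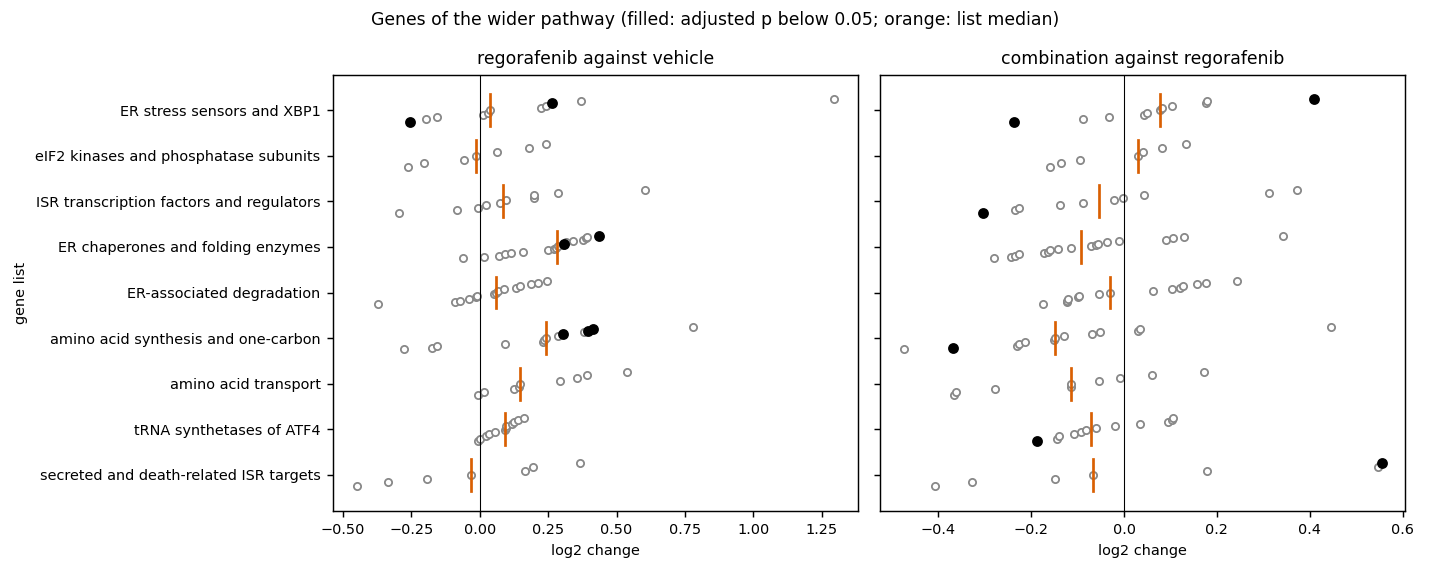
Log2 change of each tested gene (points) in 9 pathway lists (rows), the 10 genes included, for regorafenib against vehicle (left) and the combination against regorafenib (right). Filled points had an edgeR adjusted p below 0.05 and orange bars are list medians; the chaperone median is 0.28 on the left and -0.09 on the right.

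The 10 genes did not vary as a unit across the 19 libraries. Of their 45 pairs, 8 had both Pearson and Spearman correlations of log2 CPM with an adjusted p below 0.05, 7 positive and 1 negative (two-sided permutation tests, adjusted over the 45 pairs). How often pairs of other tested genes meet this rule was not computed. The closest pair was Xbp1 and Asns (r = 0.897, rho = 0.918, permutation p = 1e-05, the smallest possible, adjusted p = 0.00045 for both). Xbp1, Asns, Phgdh and Psat1 were linked by all 6 of their pairs, with r from 0.581 to 0.897, and Hspa5 was tied to Xbp1 (r = 0.702, rho = 0.607, permutation adjusted p = 0.00765 and 0.0279). On deviations from the group means, r was 0.916 for Xbp1 with Asns, 0.666 for Xbp1 with Hspa5 and 0.42 for Phgdh with Psat1.

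Ddit3 ran against Psat1 (r = -0.719, rho = -0.793, permutation adjusted p = 0.00765 and 0.00383; r = -0.797 on deviations from the group means). Atf4 was not paired with the genes it is known to raise by this rule. With Asns it had r = 0.51 (permutation adjusted p = 0.0779) and rho = 0.607 (adjusted p = 0.0279). With Trib3, Chac1 and Ddit3 its r was 0.232, 0.202 and 0.216 (adjusted p of 0.582, 0.625 and 0.605). With Herpud1 it had r = 0.53 (permutation adjusted p = 0.0661) and rho = 0.477 (0.109), and with Xbp1 r = 0.429 (0.179) and rho = 0.482 (0.109). On deviations from the group means, given without a test, r of Atf4 was 0.837 with Herpud1, 0.726 with Xbp1, 0.581 with Asns, 0.141 with Trib3, -0.18 with Chac1 and 0.0106 with Ddit3. Trib3, Chac1 and Herpud1 were in none of the 8 pairs.

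**Figure D4:**
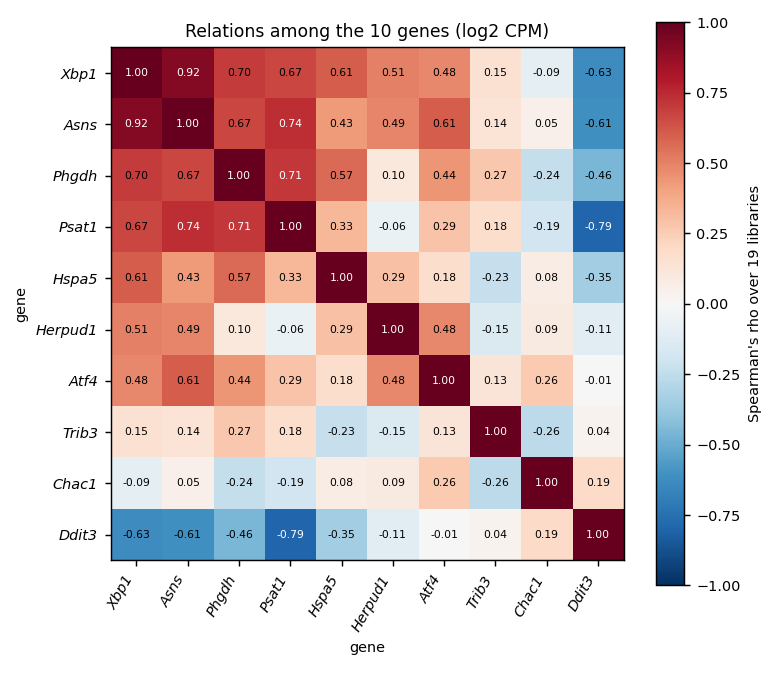
Spearman's rho of log2 CPM over 19 libraries for each pair of the 10 genes, red for positive and blue for negative. Xbp1, Asns, Phgdh and Psat1 form a block of 0.67 to 0.92 and Ddit3 is negative with each of them.

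These relations ran beside the tissue markers. Of 40 relations between the 10 genes and 4 marker lists (keratinocyte, muscle, salivary gland, plasma and B cell), 7 had both correlations at an adjusted p below 0.05. The share of all tested genes that meet this rule was not computed, so the count is not shown to be particular to these genes. Phgdh followed the keratinocyte list (r = 0.911, rho = 0.893, permutation p = 1e-05, the smallest possible, adjusted p = 0.0004 for both). Its r was 0.91 without the libraries farthest from the median score (regorafenib 3 and vehicle 4), 0.849 on deviations from the group means and 0.872 without the regorafenib group. Asns (r = 0.722, rho = 0.726), Xbp1 (0.713, 0.779), Psat1 (0.705, 0.675) and Hspa5 (0.674, 0.637) followed the same list, with permutation adjusted p from 0.0028 to 0.0278. Without the same farthest libraries r was 0.568, 0.539, 0.701 and 0.414, and on deviations from the group means 0.665, 0.697, 0.345 and 0.774. Phgdh ran against the muscle list (r = -0.64, rho = -0.628, permutation adjusted p = 0.0182 and 0.0278), with r = -0.51 without regorafenib 3 and 4 and -0.348 on deviations. Herpud1 followed the salivary gland list (r = 0.712, rho = 0.684, permutation adjusted p = 0.0052 and 0.0138), with r = 0.643 without combination 5 and vehicle 2 and 0.693 on deviations. Scores and genes come from the same scaled libraries.

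**Figure D5:**
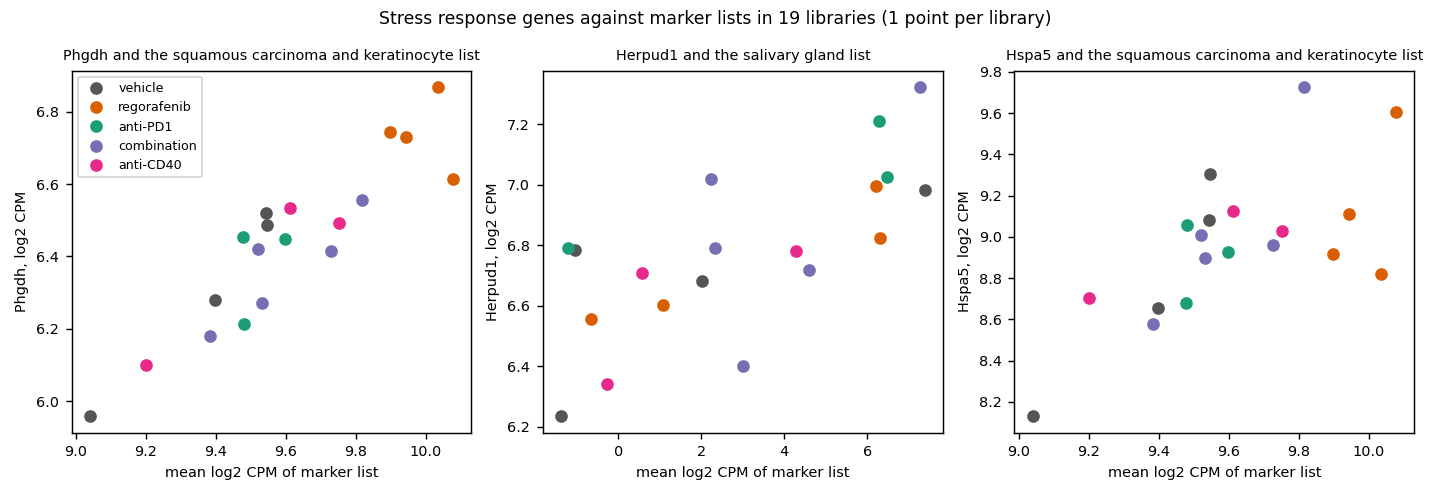
Log2 CPM of Phgdh, Herpud1 and Hspa5 (vertical axes) against the mean log2 CPM of a marker list (horizontal axes), 1 point per library, coloured by treatment. Phgdh rises with the keratinocyte list over all 19 libraries (r = 0.911) and over those without regorafenib (0.872), while among the 4 regorafenib libraries the one with the highest score has the lowest Phgdh (97.8 CPM); Herpud1 rises with the salivary gland list (r = 0.712).

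The genes most like each of the 10, by Spearman's rho over the 19 libraries among all tested genes, were chosen from these values and are given as a description. For Xbp1 they were Serp1 (0.958), an ER membrane protein, Slc5a8 (0.947) and Sec61a1 (0.923), a subunit of the channel through which proteins enter the ER. For Hspa5 they were Creld2 (0.928), Hsp90b1 (0.923), the ER form of HSP90, and Hsp90aa1 (0.886). For Asns they were Yipf5 (0.967), Arf4 (0.946) and Aldh18a1 (0.939), an enzyme of proline synthesis. Phgdh was closest to Acot7 (0.951), Nfkbia (0.937) and Slc39a4 (0.930), and Psat1 to Slc37a2 (0.909), Gdi2 (0.904) and Cept1 (0.881). Chac1 was closest to hair keratin-associated genes, Krtap1-5 (0.884), Krtap4-7 (0.884) and Krtap4-6 (0.879), whose near-identical copies make separate counts uncertain. The best matches were Grk3 (0.907) for Herpud1, Pdgfb (0.874) for Ddit3, Krtcap2 (0.856) for Atf4 and Fubp3 (0.837) for Trib3. The leading matches of Xbp1 and Hspa5 thus include other genes of the ER.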

How the data were processed

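RNA was measured in 19 tumour samples in 5 groups taken from the sample titles. Per the labels' protocols, polyadenylated RNA was sequenced from stranded libraries. The submitters' processing notes name STAR 2.7.2a, cutadapt 2.4 and GRCm38. How reads were counted, with which strand setting and gene models, is not given in the sources used here. The authors deposited whole-number counts for 55487 Ensembl IDs, not normalized. Symbols and coordinates came from GENCODE M21, which matched 55227 IDs without the version.

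Low genes were removed by edgeR's filterByExpr, which left 16909. Counts were scaled by TMM and fitted with edgeR 4.0.16 in R 4.3.3 (quasi-likelihood, robust prior, 1 mean per group, all 19 libraries, 14 residual degrees of freedom). P-values are two-sided, adjusted over all 16909 genes (Benjamini-Hochberg), and 0.05 was the threshold. The SE is the absolute log2 change over the square root of F. CPM are counts scaled by TMM to a common library size, with a prior count of 2 on the log2 scale, and TPM also divide by the union exon length. A marker score is the mean log2 CPM of a list. Correlations used 100000 permutations.

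The members and lists were chosen with earlier results of these data known. Named beyond the members were passing pathway genes, up to 4 per direction and list by p, and for each member the 3 most similar genes. For Herpud1, Ddit3, Atf4 and Trib3 only the best of these is printed. Alternatives were DESeq2 1.42.0, limma 3.58.1 with sample weights, no filter, RLE scaling, only the groups compared, a replicate block, gland and muscle scores as covariates, length and GC offsets (known for 16889 genes) and leaving out each library. The keratinocyte covariate and a prior without robust estimation were added after the data were seen. All pairs of libraries differed beyond sampling noise (lowest chi-square over its degrees of freedom 12.9). The fit was tested on simulated data.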

Additional observations from a re-analysis of the deposited data

Results flagged for a closer look

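Of 30 tests of a gene within a group of 4 or 5 libraries, 3 found a library far from the rest of its group by Dixon's ratio of the gap to the range, and chance gives about 1 in 20. Hspa5 stood at 847 CPM in combination 2, where the next highest library of the group was at 516 CPM (ratio 0.712, critical value 0.71). Psat1 stood at 108 CPM in vehicle 2, where the next was at 86.1 CPM (ratio 0.856, critical value 0.829). Vehicle 2 also had the highest salivary gland score of the 19 libraries and the highest Xbp1, Asns and Atf4 levels. Correlations of Xbp1 and Asns with that score are given above, and the part of gland tissue in the levels of vehicle 2 was not tested. Trib3 stood at 6.88 CPM in regorafenib 1, below the next lowest library at 8.56 CPM (ratio 0.93, critical value 0.829).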

How the results depend on the processing

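The number of the 10 genes called with regorafenib against vehicle was 2. It was 1 with RLE scaling (Phgdh, 6.31% of all tested genes), with length and GC offsets (Psat1, 4.65%) and with no robust prior (Phgdh, 6.13%). It was 0 with no filter on low counts (2.17%), with only the groups compared (7.43%), and with the muscle (0.319%) or the keratinocyte score (0%) as a covariate. It stayed 2 with the gland score (9.77%), DESeq2 (11.5%) and limma (9.89%). Leaving out 1 library gave 0 to 4 calls, the 4 being without vehicle 2. With the keratinocyte score the log2 change of Phgdh turned to -0.0787, in a fit that cannot tell the drug from keratinocyte content. In the combination against regorafenib the count was 1. It was 0 with no filter (3.33% of all tested genes) and with the muscle (0.0237%) or keratinocyte score (0%). It was 3 with limma (Phgdh, Psat1 and Atf4), where 18% of all tested genes were called. It was 0 to 1 when 1 library was left out, and with length and GC offsets the 1 gene called was Psat1 (edgeR adjusted p = 0.0484) and not Phgdh. Over the 5 groups the count of 0 became 2 with DESeq2 and 1 with limma, and 0 to 2 when 1 library was left out, the 2 (Asns and Psat1) being without vehicle 2. The other 5 comparisons had 0 calls under all alternatives run. The cause of these changes was not tested. Without the filter more genes enter the scaling, the estimate of spread and the adjustment, and these were not told apart. For the pathway genes beyond the 10, the 5 calls with regorafenib were 7 with DESeq2 (11.5% of all tested genes), 11 with limma (9.89%) and 3 with no filter (2.17%). They were 3 with length and GC offsets (4.65%), 2 with the replicate block (4.23%) and 0 with the muscle (0.319%) or keratinocyte score (0%). In the combination against regorafenib, the 5 were 9, 11, 1, 5, 2 and 0, in that order. The shares of all tested genes there were 16.7%, 18%, 3.33%, 7.4% and 7.1%, with 0.0237% for the muscle and 0% for the keratinocyte score. Over the 5 groups, the 3 were 9 with DESeq2 (17.2%), 12 with limma (17.1%) and 1 with no robust prior (3.94%). They were 0 with the block (1.24%), the muscle score (0.225%) or the keratinocyte score (0.0296%). Leaving out 1 library gave 0 to 9 calls with regorafenib and 0 to 5 in the other 2 tests.

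Whether the sample numbers of the titles pair the libraries was described by correlations of deviations from the group means. The numbers in the deposited column names, which differ for 4 libraries, were not used as a block. Same-numbered libraries of different groups had correlations from -0.45 to 0.539 (mean 0.0683), with 15 of 33 pairs over 0.1. Different-numbered libraries of different groups had correlations from -0.706 to 0.625 (mean -0.0211), with 45 of 110 pairs over 0.1. Of 19 libraries, 6 correlated best with their own number, and pairing was not tested. With the number as a replicate block, 0 of the 10 genes were called with regorafenib (Phgdh 0.42, edgeR adjusted p = 0.0675; Psat1 0.31, 0.0669) and 0 in the combination against regorafenib (Phgdh -0.38, 0.0733), and the block left the other counts at 0. Of 1352 values of genes not called, over comparisons and alternatives, 127 had the other sign, and the largest of these in the reported fit was 0.416 in size. The 7 relations with marker scores and the 8 between genes numbered 6 to 7 and 6 to 8 under the alternatives. Groups of 3 to 5 libraries limit what small changes can be shown. Trib3 (98 to 231 counts a library), Ddit3 (154 to 311) and Chac1 (109 to 379) rest on the fewest reads.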
